A study of Mus musculus with 3 samples.

Results

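CUT&RUN was used to map Foxp3 in macrophages grown from mouse bone marrow (BMDMs), and the sites described here are those that lay at an end of a single gene in both Foxp3 libraries. A site was selected on 3 measured properties: a peak was called in both replicates, the 2 peaks overlapped by at least 50% of both lengths, and the replicate 2 summit lay within 1000 bp of an annotated end of exactly 1 protein-coding gene on chromosomes 1 to 19 or X. Of 31111 sites shared by the replicates, 7498 met this rule, which is 24.1% (95% exact Clopper-Pearson interval 23.6 to 24.6%, counting error only). They lay at the ends of 7113 genes. The other shared sites comprised 1128 at ends of 2 or more genes, 10951 inside genes away from their ends and 11534 between genes.

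The series holds 3 libraries of one cell type: 2 made with a Foxp3 antibody (Invitrogen, FJK-16s; replicates 1 and 2) and 1 made with an isotype IgG, whose values were not analysed here. The BMDMs were grown from bone marrow in RPMI1640 medium with M-CSF-conditioned supernatant and serum, were fixed with 0.1% formaldehyde and were processed with a commercial CUT&RUN kit. Stimulation with brain-derived DAMPs (danger signals released by damaged tissue) appears in the title of the series, but the labels do not assign it to particular libraries, and no genotype, strain or age is given. Nothing in the labels says that the replicates came from separate cultures, so the spread between them may be technical, and with a single antibody group the design allows no test between groups.

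Regulatory T cells depend on Foxp3, a transcription factor of the forkhead family. Forkhead proteins bind short A- and T-rich words such as TGTTTAC, and Foxp3 has also been described on TTTG repeats. In CUT&RUN, an antibody tethers a nuclease that releases the DNA around its target, and DNA in open chromatin is more readily cut than packed DNA. The transcription start of a gene lies in its promoter, and many mammalian promoters are CpG islands. These are stretches in which the CG dinucleotide has escaped the loss seen in the rest of the genome.

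The promoters of 3 strong start sites show the CG dinucleotides that many promoters with a site hold. They are the 3 strongest by fold enrichment in both replicates among sites whose replicate 2 summit lay inside a RefSeq promoter window of 250 bases before to 50 bases after the start (GRCm38.p6). Atic encodes a bifunctional enzyme of purine synthesis (chr1:71556906-71557205, plus strand), Mfsd9 a membrane protein of the major facilitator superfamily (chr1:40790608-40790907, minus strand) and Rapgef4 an exchange factor for Rap proteins that is activated by cyclic AMP (chr2:71980965-71981264, plus strand). The promoter of Il6, an inflammatory cytokine gene chosen as an example of a gene at which neither replicate had a summit within 1000 bp of an end, is set beside them (chr5:30012864-30013163, plus strand). Each sequence runs 5′ to 3′ along the gene, and capitals mark CG dinucleotides.
Atic: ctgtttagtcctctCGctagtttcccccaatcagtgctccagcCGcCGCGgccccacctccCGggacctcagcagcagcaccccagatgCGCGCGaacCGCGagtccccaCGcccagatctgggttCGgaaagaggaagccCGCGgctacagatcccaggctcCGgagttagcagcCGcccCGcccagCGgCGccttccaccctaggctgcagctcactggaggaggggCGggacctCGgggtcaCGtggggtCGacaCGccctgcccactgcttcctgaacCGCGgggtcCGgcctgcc
Mfsd9: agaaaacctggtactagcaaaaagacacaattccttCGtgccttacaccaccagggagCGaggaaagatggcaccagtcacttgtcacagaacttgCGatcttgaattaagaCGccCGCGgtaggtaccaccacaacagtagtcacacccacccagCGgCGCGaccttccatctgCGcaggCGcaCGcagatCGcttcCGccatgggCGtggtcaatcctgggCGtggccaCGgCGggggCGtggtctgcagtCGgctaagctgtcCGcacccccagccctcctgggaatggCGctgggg
Rapgef4: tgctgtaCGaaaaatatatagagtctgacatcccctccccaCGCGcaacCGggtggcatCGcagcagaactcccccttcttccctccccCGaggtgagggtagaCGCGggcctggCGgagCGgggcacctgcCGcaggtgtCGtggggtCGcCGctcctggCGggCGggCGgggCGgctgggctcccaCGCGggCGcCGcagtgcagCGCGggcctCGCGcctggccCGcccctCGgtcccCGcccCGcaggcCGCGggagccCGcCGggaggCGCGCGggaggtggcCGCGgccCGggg
Il6: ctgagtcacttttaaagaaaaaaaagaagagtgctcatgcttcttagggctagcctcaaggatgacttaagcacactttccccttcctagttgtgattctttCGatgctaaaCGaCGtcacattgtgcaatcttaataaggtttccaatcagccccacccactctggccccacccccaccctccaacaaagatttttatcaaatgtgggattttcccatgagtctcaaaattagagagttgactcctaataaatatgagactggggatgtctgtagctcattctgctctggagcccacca
The Atic window held 27 CG dinucleotides, Mfsd9 22 and Rapgef4 40, against 3 in Il6. GC content was 69.7% for Atic, 60.7% for Mfsd9 and 76.7% for Rapgef4, against 44.0% for Il6. Over all genes with a start site the quartiles were 57 and 69% GC and 15 and 30 CG, so Rapgef4 lies above both upper quartiles and Atic just above that of GC. The replicate 2 summit lay at +17 bp from the start of Atic, at -10 bp in Mfsd9 and at -44 bp in Rapgef4, negative values being upstream. Fold enrichment in replicates 1 and 2 was 27.0 and 10.4 at Atic, 29.1 and 8.64 at Mfsd9, and 23.9 and 9.12 at Rapgef4.

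A further 3 promoters carry a forkhead word beneath the peak. They are the 3 strongest start sites that held TGTTTAC or TGTTTGC, on either strand, both in the promoter window and under the replicate 2 peak, and capitals mark the word. Mob2 encodes a partner of NDR kinases (chr7:142061010-142061309, minus strand), Btg1 an antiproliferative factor (chr10:96616751-96617050, plus strand) and Lhfp a membrane protein of the tetraspan type (chr3:53041297-53041596, plus strand).
Lhfp: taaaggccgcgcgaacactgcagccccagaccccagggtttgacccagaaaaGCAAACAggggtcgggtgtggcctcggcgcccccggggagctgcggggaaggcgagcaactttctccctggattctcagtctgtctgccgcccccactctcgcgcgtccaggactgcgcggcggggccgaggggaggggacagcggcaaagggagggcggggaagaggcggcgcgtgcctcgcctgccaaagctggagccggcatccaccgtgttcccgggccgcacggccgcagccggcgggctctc
Mob2: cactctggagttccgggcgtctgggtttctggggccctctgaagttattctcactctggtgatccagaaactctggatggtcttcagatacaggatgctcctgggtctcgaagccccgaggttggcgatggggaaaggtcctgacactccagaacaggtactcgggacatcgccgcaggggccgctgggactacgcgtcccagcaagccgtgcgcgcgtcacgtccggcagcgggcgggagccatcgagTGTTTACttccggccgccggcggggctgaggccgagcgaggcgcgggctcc
Btg1: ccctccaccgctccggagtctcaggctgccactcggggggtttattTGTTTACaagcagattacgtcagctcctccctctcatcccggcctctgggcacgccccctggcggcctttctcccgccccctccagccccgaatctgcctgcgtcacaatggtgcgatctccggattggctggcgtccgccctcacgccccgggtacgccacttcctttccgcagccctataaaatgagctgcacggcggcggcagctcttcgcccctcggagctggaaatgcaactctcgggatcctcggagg
Counted from the start, negative upstream, the word began at base -198 in Lhfp, -1 in Mob2 and -204 in Btg1. The replicate 2 summit was at -107 bp in Lhfp, +27 bp in Mob2 and -4 bp in Btg1. Fold enrichment in replicates 1 and 2 was 16.3 and 7.73 at Lhfp, 19.7 and 5.92 at Mob2, and 16.4 and 6.10 at Btg1. Such promoters were few among the sites. Of 714 start sites whose summit fell in the window of a promoter beginning at the annotated end, 27 held either word (3.78%) and 18 held it under the peak, and either word was present in 7.41% of all promoters and in 4.8% of CpG-rich promoters.

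The depth of the libraries was similar and their peak lists were not. Per the file headers, replicate 1 had 33294105 fragments and replicate 2 had 34898401, while the lists held 556535 and 95135 peaks with smallest pileups of 10 and 13 fragments. The fragment size was 130 bp in replicate 1 and 180 bp in replicate 2, and the shortest peaks among the sites had these lengths. Peak lengths and pileups of the 2 replicates thus rest on unlike settings. The sites were 1.35% of the replicate 1 peaks and 7.91% of the replicate 2 peaks on these chromosomes. None of the sites had a pileup of 1000 fragments or more in either replicate, whereas 49 of the other shared sites did. As a check of the cell label, 3 of 12 macrophage marker genes had a site (Mertk, Spi1 and Cebpa), against 0 of 8 T cell markers, 2 of 5 B cell markers and 1 of 5 neutrophil markers; of all protein-coding genes 32.9% had one. A binding site is not expression, so these counts do not identify the cells.

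Of the 5922 sites at genes whose strand was known, 5306 lay at the transcription start (89.6%, exact interval 88.8 to 90.4%), 500 at the opposite end (8.44%, 7.75 to 9.18%) and 116 at genes so short that both ends fell within 1000 bp of the summit (1.96%). A further 1576 sites lay at genes of unknown strand, including all 226 on chromosome 18. The start share was lower in either list taken alone. It was 60.5% of the 23506 replicate 1 peaks at an end of exactly 1 gene of known strand, and 82.3% of the 9931 such replicate 2 peaks. Without replicate 1 the count of peaks at an end of 1 gene was 12614, and without replicate 2 it was 29824.

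Peaks at starts were more often shared than peaks at opposite ends. Among replicate 2 peaks, 5306 of 8170 at the start of 1 gene were shared (64.9%, exact interval 63.9 to 66.0%), 500 of 1560 at an opposite end (32.1%, 29.7 to 34.4%) and 27.9% of the 80460 with no protein-coding gene end within 1000 bp. Among replicate 1 peaks, placed by their own summits, 37.3% of 14217 at a start were shared, 5.96% of 8538 at an opposite end and 4.30% of 522399 away from ends. Shared peaks also had the higher enrichment. The median replicate 2 fold enrichment at starts was 5.76 for shared peaks and 4.52 for those not shared, and the part of enrichment in the shared fraction was not tested.

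Counted over genes, 7113 of 21627 protein-coding genes had a site at either end, or 32.9%. Of 17273 genes of known strand, 5181 had a site at the start (30.0%) and 496 had one at the opposite end (2.87%). Some genes could not enter the list because a neighbouring gene end lay too close to their start. Among the 13853 genes with no other gene end within 2000 bp of the start, 4892 had a start site (35.3%). A single site was found at 6735 genes, 2 sites at 371 and 3 sites at 7. In 167 genes one site lay at the start and another at the opposite end.

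Summits at the start lay mostly just inside the gene. The replicate 2 summit was a median of 202 bp downstream of the annotated start (quartiles 51 and 391 bp), and 4359 of 5306 summits were downstream (82.2%). The replicate 1 summit of the same sites had a median of 196.5 bp downstream (quartiles 48 and 393.75 bp), with 4324 downstream (81.5%). The most populated 100 bp bin ran from 100 to 200 bp downstream in both replicates, with 883 replicate 2 summits (16.6%) and 948 replicate 1 summits (17.9%). Because membership fixed the replicate 2 summit within 1000 bp, only its position inside that window carries information. Membership also left out summits within 1000 bp of a second gene's end, and the part of this in the downstream share was not tested. Measured from the nearest of the gene's own listed RefSeq starts, the replicate 2 median was 114 bp downstream (quartiles -25 and 273 bp), and 96.3% of summits lay within 1000 bp of such a start.

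The median replicate 2 peak at a start reached from -87 bp to +498 bp. It covered the annotated start itself at 3443 sites (64.9%), and the replicate 1 peak did so at 3532 sites (66.6%). Other annotation was often close by. An end of a gene of another type lay within 1000 bp of 750 start summits (14.1%), and a listed start of another gene, of any type, within 1000 bp of 641 (12.1%). These counts can overlap, and the rule had already set aside sites with an end of a second protein-coding gene that close.

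**Figure D1:**
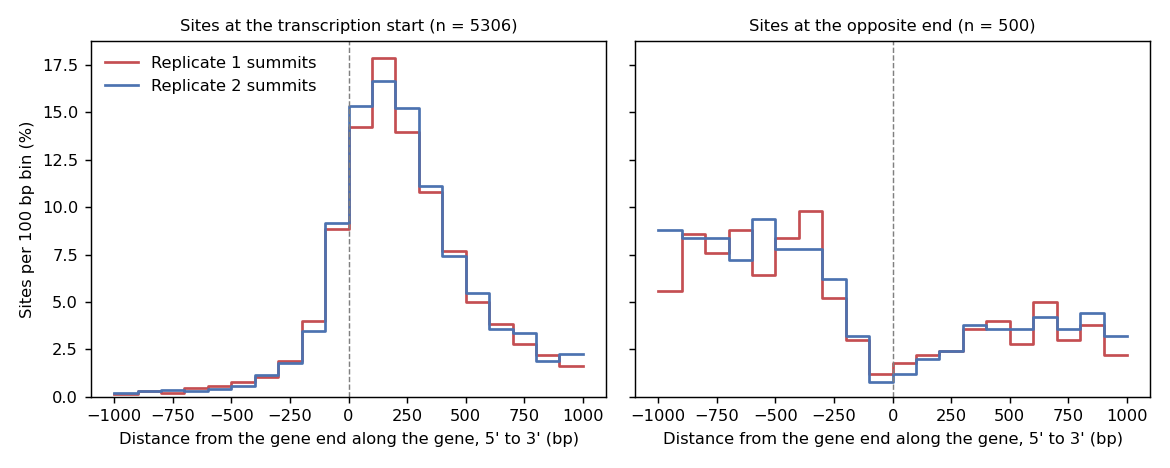
Distribution of peak summits around the transcription start (left) and the opposite end (right) of the gene, as the percentage of sites in each 100 bp bin against the distance along the gene from 5′ to 3′; lines show replicates 1 and 2. Summits at starts are most numerous 100 to 200 bp downstream in both replicates (17.9% and 16.6%), whereas few summits at opposite ends lie at the end itself.

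Sites at the opposite end were placed differently around it. Of the 500, 340 had the replicate 2 summit inside the gene (68.0%, exact interval 63.7 to 72.1%), at a signed median of -398.5 bp (quartiles -709.25 and 319 bp), where negative values lie upstream of the end. Only 10 summits of replicate 2 and 15 of replicate 1 lay within 100 bp of the end itself. That is 2.00% of the opposite-end sites in replicate 2 (0.963 to 3.65%), against 24.6% of the start sites (1306 of 5306). The replicate 2 peak covered the annotated end at 20 sites (4.0%) and the replicate 1 peak at 24 (4.8%). A listed start of another gene, of any type, lay within 1000 bp of 16 opposite-end summits (3.20%), and a listed start of the same gene within 1000 bp of 7 (1.4%). The rule had already set aside sites with an end of a second protein-coding gene that close. The count for other genes was therefore limited in advance and does not show how often such sites lie near a neighbour's start.

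Start sites were stronger and longer than opposite-end sites in both replicates. Fold enrichment over the library's own local background had medians of 12.3 in replicate 1 and 5.76 in replicate 2 at starts, against 7.03 and 4.12 at opposite ends. Median pileup at the summit was 74 and 35 fragments at starts, against 45 and 26 at opposite ends. Peak length had medians of 593 and 562 bp at starts, against 292.5 and 268 bp at opposite ends. Opposite-end sites thus had values near those of shared sites inside genes, whose medians were 7.58 and 4.32 fold and 285 and 265 bp. Shared sites between genes had medians of 8.35 and 4.52 fold, and those at ends of 2 or more genes 11.1 and 5.46 fold. The 116 sites at short genes had medians of 13.6 and 4.94 fold, and the 1576 of unknown strand 11.7 and 5.50 fold. Sites are not replicates of a condition, and these medians carry no test.

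**Figure D2:**
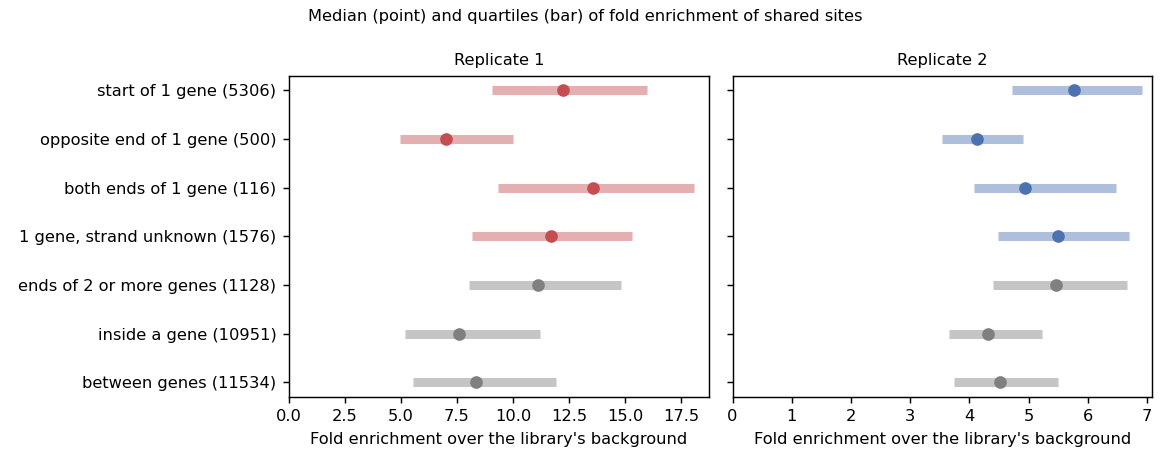
Fold enrichment of shared sites by position, replicate 1 (left) and replicate 2 (right); points are medians, bars run between the quartiles, and the number of sites is in parentheses. Coloured classes are the sites at an end of 1 gene and grey classes the other shared sites; start sites (12.3 and 5.76) exceed opposite-end sites (7.03 and 4.12) in both replicates.

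Ranked by the mean percentile of fold enrichment in the 2 replicates, the sites in the lowest of 4 equal groups were 73.6% start and 24.4% opposite end, of 1442 with known strand. In the highest group they were 96.6% start and 1.39% opposite end, of 1514. Median replicate 2 length was 317 bp in the lowest group and 630 bp in the highest. The share of starts thus increased with enrichment among sites that had all passed the same rule.

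The replicates agreed in order only loosely. Over all 7498 sites, Spearman's rho between replicate 1 and replicate 2 fold enrichment was 0.466, and it was 0.415 at starts and 0.323 at opposite ends; these are descriptions over sites that share both libraries. Replicate 1 fold enrichment was above that of replicate 2 at 7148 sites (95.3%), with a median ratio of 2.06. The summits of the 2 replicates lay a median of 104 bp apart, and 61 bp apart at opposite ends, where peaks were shorter. The smaller of the 2 overlap shares had a median of 73.8%.

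**Figure D3:**
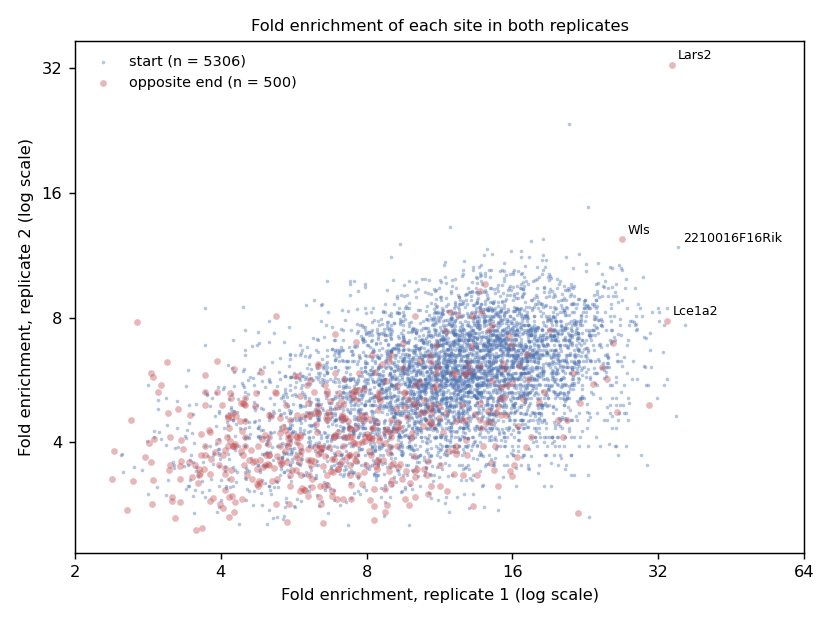
Fold enrichment in replicate 1 (horizontal) and replicate 2 (vertical) for each start site (blue) and opposite-end site (red), on log scales; Spearman's rho was 0.415 and 0.323. The opposite-end site of Lars2, at 34.1 and 32.6, stands apart from the others.

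The 10 strongest start sites by this rank had fold enrichments of 24.1 to 35.1 in replicate 1 and of 9.42 to 11.8 in replicate 2. The site of 2210016F16Rik ranked highest, with 35.1-fold enrichment and a pileup of 297 fragments in replicate 1 and 11.8-fold and 63 fragments in replicate 2. Pcnx4 followed with 29.8 and 10.0 fold, and Nit2, which encodes omega-amidase, with 26.6 and 10.7 fold; a start of another gene lay within 1000 bp of the Nit2 summit. Exosc3, a subunit of the RNA exosome, had 26.8 and 10.5 fold. Itm2b, a membrane protein that is processed by furin, had 27.5 and 9.90 fold. The others were Atic, Bbs7 (a subunit of the BBSome, which carries cargo in cilia), Eif3j1 (a subunit of translation initiation factor eIF3), Heatr6 and Stxbp5l (a tomosyn, which regulates vesicle fusion). The 10 summits of replicate 2 were all downstream of the start, by 17 bp at Atic to 469 bp at Stxbp5l. No macrophage marker was among these genes.

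Single sites departed from this order in 1 replicate. The Parp2 start site (chr14:50807449-50807764 in replicate 2), named after its values were seen, had 23.4-fold enrichment in replicate 2, the highest of any start site there, and 20.9-fold in replicate 1, with pileups of 256 and 78 fragments. Parp2 encodes a poly(ADP-ribose) polymerase of DNA repair, and the summit was at -424 bp from its start. Rps29, a ribosomal protein gene of unknown strand, was also named after its values were seen and had a pileup of 805 fragments in replicate 2 and 123 in replicate 1, with 23.0 and 17.6 fold. Over all sites the upper quartile of replicate 2 pileup was 42 fragments, and the source of the high pileup at Rps29 was not tested. Nxf1, which encodes the main mRNA export receptor, had the highest replicate 1 value among the sites, 36.4-fold, and 7.67-fold in replicate 2; it too was chosen after its values were seen.

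The strongest opposite-end site was in Lars2, which encodes mitochondrial leucyl-tRNA synthetase (chr9:123461801-123462202 in replicate 2). Enrichment there reached 34.1-fold in replicate 1 and 32.6-fold in replicate 2, with pileups of 462 and 690 fragments, and the replicate 2 summit lay inside the gene at -657 bp from its end. It is the highest replicate 2 fold enrichment of all 7498 sites. Over opposite-end sites the upper quartile of replicate 2 pileup was 32 fragments. No list of excluded regions was applied, and the source of the high pileup in Lars2 was not tested. Lars2 also had a start site, with 7.93 and 6.09 fold and pileups of 29 and 30 fragments. Wls, a carrier of Wnt proteins, had an opposite-end site of 27.0 and 12.4 fold, 891 bp beyond the end of the gene. Lce1a2, a gene of the skin's cornified envelope, had 33.4 and 7.85 fold. Wasf1, an actin regulator, had 25.8 and 6.95 fold, and Krt10, an epidermal keratin, had 19.1 and 7.46 fold.

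Ranked by the mean percentile over all sites of a gene, Lars2, Chrna7 and Slc10a4 came highest among the genes with a site at both ends. That mean counts every site, and Wls, whose stronger start site had 14 and 8.05 fold, falls below them through another, weak start site of 4.50 and 3.93 fold. Chrna7, a nicotinic acetylcholine receptor subunit, had 15.2 and 5.89 fold at the start and 15.9 and 6.87 fold at the opposite end. Slc10a4, a transporter of synaptic vesicles, had 28.4 and 6.28 fold at the start and 17.2 and 6.52 fold at the opposite end. In replicate 2 the values at the 2 ends lay close together in Chrna7 and Slc10a4 and far apart in Lars2.

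Several genes carried more than 1 start site. In the 123 genes with 2 start sites, the replicate 2 summits were a median of 726 bp apart (quartiles 604 and 939.5 bp). In 77 of them the sites flanked the annotated start, and the medians over all 123 were -187 bp and +601 bp. The 7 genes with 3 sites were Bicdl1, Dyrk1a, Fgf16, Hmx1, Rprd2, Wls and Zfp407. At Dyrk1a, a protein kinase gene, all 3 lay around the start, with replicate 2 summits at -866, -17 and +504 bp and fold enrichments of 3.84, 4.29 and 4.59 in replicate 2, and of 5.88, 5.95 and 12.3 in replicate 1. At Wls, 2 sites at the start had 8.05 and 3.93 fold in replicate 2, below the 12.4 fold of its opposite-end site.

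The longest start site lay at Fcgr3, the low-affinity activating Fc gamma receptor III of macrophages (chr1:171063891-171066268 in replicate 1). The peaks were 2378 bp in replicate 1 and 2409 bp in replicate 2, with pileups of 399 and 266 fragments and fold enrichments of 7.42 and 6.64. Its summit was at -35 bp from the annotated start in replicate 2 and at +910 bp in replicate 1. The nearest start that RefSeq lists for the gene's transcripts in the promoter table was far from the replicate 2 summit, which was at -6547 bp from it, and an end of another type of gene lay within 1000 bp. Med12l, which encodes a Mediator subunit, had peaks of 1232 and 1998 bp, and Phf13, a reader of methylated histone H3, of 993 and 1822 bp.

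Promoters of genes with a start site were richer in CpG than those of genes without one. The rule used no promoter sequence, but genes whose site also lay at a neighbouring gene's end count as genes without one. Over the 5181 genes with a start site, the promoter window had a median GC content of 62.7% and 22 CG dinucleotides, against 53.0% and 7 over the 12092 genes without one. The ratio of observed to expected CG had a median of 0.779 in genes with a start site, against 0.392 in those without. It was at least 0.6, called CpG-rich here, in 76.1% of promoters with a start site, against 37.3% of those without. Where the summit lay inside the window itself (1392 genes) the share was 84.7%. It was 9.92% in the 2398 genes at which neither replicate had a summit within 1000 bp of an end. In the 329 genes with a site at the opposite end alone it was 41.9%, beside 49.0% of all promoters.

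The share of genes with a start site increased in steps with CpG content and then levelled off. It was 158 of 3824 genes, or 4.13%, at a ratio under 0.2, 13.1% at 0.2 to 0.4, 32.7% at 0.4 to 0.6, 45.1% at 0.6 to 0.8, 48.0% at 0.8 to 1 and 46.8% at 1 and over. Among genes with no neighbouring end within 2000 bp of the start the shares were 4.25%, 14%, 37.8%, 56.4%, 64.4% and 66.0% in the same order. Sites at opposite ends did not follow the promoter's CpG content in this way, with shares of 2.41% to 3.31% across the 6 classes. The start sites themselves were also longer and stronger in CpG-rich promoters. Median replicate 2 length was 711 bp in the highest class and 334 bp in the lowest, and median fold enrichment in replicates 1 and 2 was 13.2 and 6.11 in the highest and 9.32 and 4.71 in the lowest. GC content moved with CpG content in these promoters, and its part in these shares was not tested. The IgG library was not analysed here, so the background at the same promoters was not compared.

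**Figure D4:**
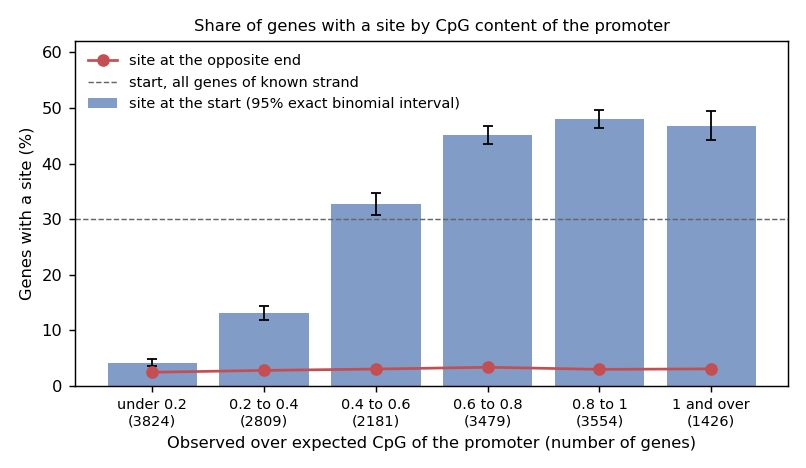
Percentage of genes with a site at the start (bars, with 95% exact binomial intervals) and at the opposite end (points), by the ratio of observed to expected CG in the promoter window; the number of genes is in parentheses and the dashed line is the start share of all genes of known strand (30.0%). Start sites are found at 4.13% of genes in the lowest class and at 48.0% at 0.8 to 1, while opposite-end sites stay between 2.41% and 3.31%.

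Forkhead words were less frequent in promoters of genes with a start site than in promoters at large. TGTTTAC, searched on both strands in the 300-base window, was present in 1.95% of promoters with a start site (exact interval 1.59 to 2.36%), in 3.40% of those without and in 2.96% of all. TGTTTGC was present in 2.78%, 5.39% and 4.61% in the same order, and TTTGTTTG in 1.68%, 2.39% and 2.18%. The words are rich in A and T, and the difference was smaller within CpG-rich promoters. There TGTTTAC was present in 1.90% of 3943 promoters with a start site, against 2.39% of 4516 without, TGTTTGC in 2.26% against 3.06%, and TTTGTTTG in 1.32% against 1.22%. A match is a description of letters in this window and shows neither binding nor its absence. The group without a start site includes genes that could not enter because a neighbouring gene end lay too close. Their part in these shares was not tested.

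Words of other promoter factors differed in either direction. Here too the group without a start site includes genes kept out by a close neighbouring gene end, whose part in the shares was not tested. GGGCGG, the GC box bound by Sp1-type factors, was present in 70.9% of promoters with a start site, against 36.6% without and 46.9% of all. Within CpG-rich promoters the shares were 78.8% and 70.2%. AGGGGGC, part of the CTCF site, was present in 18.5% with a start site, 10.4% without and 12.8% of all. Within CpG-rich promoters it was present in 20.1% with and 17.0% without. GCGCATGC, the word of nuclear respiratory factor 1, was present in 5.73%, 2.74% and 3.64%, and in 6.85% and 6.18% within CpG-rich promoters. TATAAA, the TATA box, was less frequent, at 6.60% with a start site, 16.4% without and 13.4% of all, and at 5.38% and 6.22% within CpG-rich promoters. TGANTCA, the AP-1 word, was present in 4.46%, 8.22% and 7.09%, and GAGGAAGT, a PU.1-type word, in 2.32%, 3.53% and 3.17%. Within CpG-rich promoters both were slightly more frequent with a start site, the AP-1 word at 3.53% with and 3.34% without, and the PU.1-type word at 2.31% with and 2.26% without. CCGGAAGT, an Ets word, was more frequent with a start site over all promoters (6.89%, against 4.68% without and 5.34% of all) but less frequent within CpG-rich promoters (7.81%, against 10.2% without). AAGATGGC, the YY1 word, likewise was present in 3.67% with a start site, 3.04% without and 3.23% of all, and in 4.31% and 5.93% within CpG-rich promoters. CCAAT, the NF-Y word, was present in 36.4%, 40.9% and 39.6%, and in 36.0% and 39.5% within CpG-rich promoters. TGACGTCA, the CREB word, was present in 3.24%, 1.98% and 2.36%, and in 3.85% and 3.90% within CpG-rich promoters, and CACGTG, the E-box, in 10.6%, 6.88% and 8.01%, and in 11.7% and 11.4%.

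**Figure D5:**
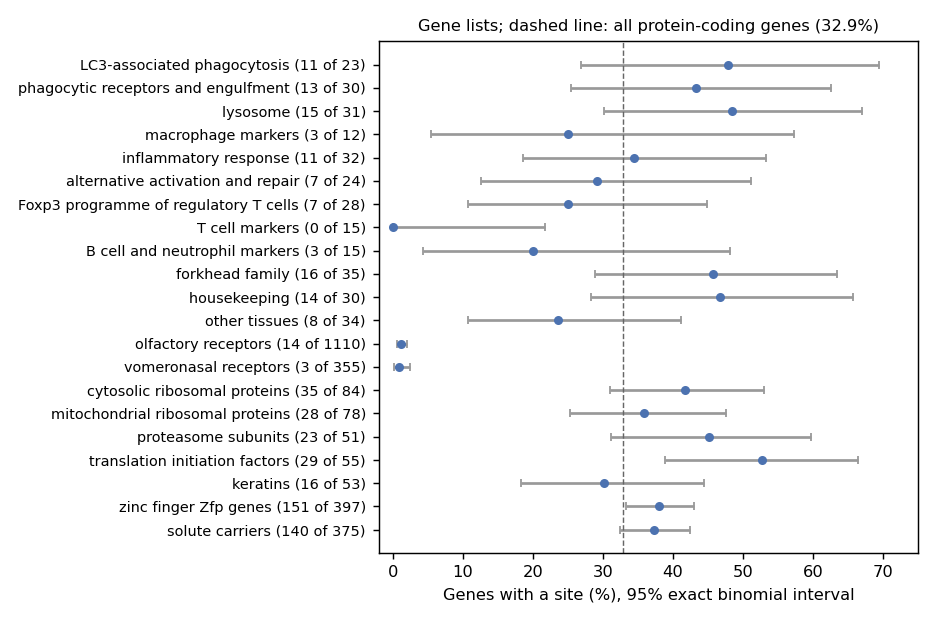
Percentage of genes with a site at an end of their own for each gene list and for families named by symbol prefix, with 95% exact binomial intervals; the dashed line is the share of all protein-coding genes (32.9%). No T cell marker gene had a site (0 of 15), and olfactory and vomeronasal receptor genes lie at 1.26% and 0.845%. The shares are not adjusted for the CpG content of the promoters.

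Several gene groups with known roles in phagocytes were counted beside the 32.9% of all protein-coding genes; the groups were chosen with results of these data known, and their counts carry no test. Of 23 genes of LC3-associated phagocytosis, in which the autophagy protein LC3 is attached to phagosomes, 11 had a site (47.8%). They included Atg5, Atg7 and Atg16l1 of the LC3 conjugation machinery, Map1lc3a and Map1lc3b, which encode LC3, and Cyba of the NADPH oxidase. The highest ranks were those of Rab5a, an early endosome GTPase (23.7 and 7.93 fold), and Wipi2, which recruits the conjugation machinery (11.2 and 8.23 fold). Rubcn, the regulator Rubicon, was not among them. A further 4 of the 23 had only a site that was also at the end of a neighbouring gene.

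Of 30 genes for phagocytic receptors and engulfment, 13 did (43.3%), at the start in 10 and at the opposite end in 2 of the 24 of known strand. Pros1, a bridging ligand for apoptotic cells, had 18.6 and 9.42 fold, and Rac1, the GTPase that drives actin at the phagocytic cup, 20.8 and 8.21 fold. Lysosomal genes had a site at 15 of 31 (48.4%), among them Atp6v1h, a subunit of the proton pump (15.9 and 8.25 fold), and Ctsc, a cathepsin (18.5 and 5.89 fold). Tfeb and Tfe3, which encode regulators of lysosomal genes, also had a site. Housekeeping genes had one at 14 of 30 (46.7%), with 21.1 and 9.03 fold at Copb1, a subunit of the COPI vesicle coat, and 15.2 and 8.32 fold at Hprt, an enzyme of purine salvage. A further 1 engulfment, 7 lysosomal and 3 housekeeping genes had only a site that was also at the end of a neighbouring gene. The exact intervals of all 4 groups contain the values of the others, so the groups were not separated by their counts. All 4 intervals also contain the share of all protein-coding genes (32.9%), so none of these groups was separated from it. CpG-rich promoters made up 68.8% of those of known strand for LC3-associated phagocytosis, 41.7% for engulfment, 45.8% for lysosomal and 86.4% for housekeeping genes. They made up 49.0% of all promoters, and the part of CpG content in these counts was not tested.

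Of 32 inflammatory response genes 11 had a site (34.4%). Prdx1, a peroxiredoxin, had 22.7 and 7.07 fold and Ptgs2, which encodes cyclooxygenase 2, 17.7 and 7.66 fold; at both, another gene's listed start lay within 1000 bp of the summit. Of 24 genes of alternative activation and repair 7 had a site (29.2%). Tgfbr2, a receptor of transforming growth factor beta, had 22.2 and 6.06 fold, and another gene's listed start lay within 1000 bp of its summit. Stat3, a cytokine-activated transcription factor, had 13.8 and 6.09 fold. Of 28 genes of the regulatory T cell programme of Foxp3, 7 had a site (25%): Nt5e, Pde3b, Cd83, Satb1, Tcf7, Cbfb and Nfatc2. Cd83 had 20.6 and 6.68 fold and Pde3b, a phosphodiesterase of cyclic AMP, 12.8 and 8.92 fold. The exact intervals were 18.6 to 53.2% for inflammatory genes, 12.6 to 51.1% for repair and 10.7 to 44.9% for the Foxp3 programme. All of them hold the 32.9% of all protein-coding genes.

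Of 12 macrophage identity genes 3 had a site (25%), and the exact interval of 5.49 to 57.2% holds the 32.9% of all protein-coding genes. Mertk, a receptor for apoptotic cells, had 15.0 fold in replicate 1 and 2.95 fold in replicate 2. Its pileups were 60 and 14 fragments, the latter close to the smallest pileup of the replicate 2 list. Another gene's listed start lay within 1000 bp of the Mertk summit. Spi1, which encodes the lineage factor PU.1, had 6.78 and 4.99 fold. Csf1r, the M-CSF receptor, had only a shared site that was also at the end of a neighbouring gene, and at Adgre1, which encodes F4/80, neither replicate had a summit within 1000 bp of an end. Of the longer list of 15 T cell genes 0 had a site, which allows a share of up to 21.8%. CpG-rich promoters made up 18.2% of those of known strand in this list, against 49.0% of all promoters. The part of CpG content in this count was not tested. Replicate 1 had a summit within 1000 bp of an end at each of the 8 genes of the shorter T cell list. Replicate 2 had one at Cd4 and Cd8a. At the Foxp3 gene itself replicate 1 had 1 summit within 1000 bp of an end and replicate 2 had 0. Of 15 B cell and neutrophil genes 3 had a site, with 14.4 and 5.18 fold at Pax5, a transcription factor of B cells. Of 34 genes of other tissues 8 had one (23.5%). Examples were Pomc, a hormone precursor, at its opposite end (11.6 and 7.44 fold) and Snap25, a synaptic fusion protein (14 and 6.28 fold). Another gene's listed start lay within 1000 bp of the Snap25 summit. Both the B cell and neutrophil interval (4.33 to 48.1%) and that of other tissues (10.7 to 41.2%) hold 32.9%.

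Forkhead family genes had a site at 16 of 35 (45.7%), and the exact interval of 28.8 to 63.4% holds the 32.9% of all protein-coding genes. Those with a site included Foxp2, Foxo1, Foxo3 and Foxk1. Foxj3 had 12.4 and 8.97 fold and Foxd2 9.52 and 6.0 fold. Foxq1 was among the 16, and another shared site of that gene lay 1003 bp from its end, just beyond the limit, with 18.8 and 5.56 fold.

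The 1000 bp limit fell where sites were getting fewer. Just inside it were the Smad6 start site, with the summit at -1000 bp and 4.31 and 3.21 fold, and a site at Trib1, of unknown strand, with 3.05 and 3.38 fold. Just outside it, beside Foxq1, was a site at Erf 1003 bp from the start with 7.26 and 3.04 fold. Between 901 and 1000 bp from the nearest end 235 sites had medians of 9.27 and 4.75 fold, and between 1001 and 1100 bp 216 shared sites had 9.04 and 4.50 fold. At the overlap limit, 667 sites with 50 to 55% overlap had medians of 9.93 and 4.86 fold, and 613 pairs with 45 to 50% had 10.3 and 4.96 fold. Neither limit thus separated sites of different enrichment.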

How the data were processed

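The data were the peak lists of 2 Foxp3 CUT&RUN libraries. The submitters' processing notes name CASAVA 1.4 and the genome build mm10. For the aligner, nothing is given in the sources used here. The authors called peaks in each library alone, per the file headers, with MACS 2.1.1.20160309 at a q-value cutoff of 0.01, with no control library and all duplicates kept. The deposited values are the pileup at the summit (fragment coverage, a signal), the fold enrichment (a ratio to the library's own local background), and the −log10 p-value and −log10 q-value of each peak. These are the authors' values, used to describe and rank sites. Without a control, a local background cannot remove signal that does not depend on the antibody. Replicate 1 has many more peaks than replicate 2. Of peaks at an end of 1 gene, 25.2% were shared in replicate 1 and 59.4% in replicate 2, so both lists limit membership.

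Peaks were paired by reciprocal overlap and placed against gene ends of the RefSeq GRCm38.p6 table, the NCBI name of mm10. Strand came from the RefSeq promoter table of the same build, which held 17273 of 21627 protein-coding genes and none on chromosome 18; genes absent from it have unknown strand. CpG observed over expected was CG count times length over the product of C and G counts, with 1 promoter per gene. Words were searched on both strands, overlaps between words allowed. Python 3.11.15 with pandas 2.3.3, numpy 2.4.6, scipy 1.17.1 and matplotlib 3.10.9 was used, and the placing of sites was tested on simulated data. No list of excluded regions was applied.

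Genes were named by a rule: the 10 strongest start and 5 strongest opposite-end sites by mean percentile of fold enrichment over the sites, the 3 longest start sites, genes with most sites or with sites at both ends, the 2 highest of each gene list, sites next to the limit, and Foxp3, Rubcn, Csf1r, Adgre1 and Spi1. The values of 1 gene so named are not reported here. The sites, lists and words were chosen with earlier results of these data known. Exact intervals (95%) cover counting error only. Alternatives were other windows, overlaps, thresholds, summits and gene types, each library alone and other promoter backgrounds.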

Additional observations from a re-analysis of the deposited data

How the results depend on the processing

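The number of sites was 6189 with a window of 500 bp, 8489 with 2000 bp, 10812 with 1 bp of overlap, 2624 with 80% overlap, and between 12614 and 29824 without replicate 1 or 2. The percentage of shared sites at an end of 1 gene was 19.9 at 500 bp, 27.3 at 2000 bp, 21.2 with 1 bp of overlap, 28.8 with 80%, 28.5 at a −log10 q of at least 5, 33.3 with the strongest replicate 1 peaks in equal number and 20.8 with genes of any type. It was between 5.37 and 13.3 in 1 replicate alone. In the same order the start share was 94.5, 83.6, 87.6, 93.4, 91.4, 92.7 and 88.7%, and between 60.5 and 82.3% in 1 replicate alone. Genes with an opposite-end site numbered 230, 790, 870 and 106 under the first 4 of these settings, against 496, and genes with a start site 1943 at 80% overlap, against 5181. The median start distance was 197 bp with the replicate 1 summit deciding membership and 155 bp at 500 bp. For the word shares (genes with a start site minus the background, in percentage points), against genes with no summit TGTTTAC was at -3.26, TGTTTGC at -3.85, TTTGTTTG at -2.07 and GGGCGG at 60.1. With the summit in the window TGTTTGC was at -2.67, TTTGTTTG at -1.10 and GGGCGG at 33.1. Within CpG-rich promoters, an alternative chosen after seeing the data, they were -0.261 for TGTTTAC, -0.426 for TGTTTGC and 4.62 for GGGCGG, and TTTGTTTG turned to 0.0539. The cause of these moves was not tested. The start share exceeded the opposite-end share, and median fold enrichment lay between 11.0 and 13.1 in replicate 1 and between 5.28 and 6.09 in replicate 2, under every setting tried for them. No paired analysis was possible because the design holds 1 group and no test. Depth limits sites with small pileups: the median replicate 2 pileup was 35 fragments.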

Other observations

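Large gene families differed in how often their members had a site at an end of their own, beside 32.9% of all protein-coding genes. Genes named as translation initiation factors had one at 29 of 55 (52.7%), proteasome genes at 23 of 51 (45.1%), cytosolic ribosomal protein genes at 35 of 84 (41.7%) and mitochondrial ribosomal protein genes at 28 of 78 (35.9%). A further 20 of the mitochondrial and 12 of the cytosolic ribosomal protein genes had only a site that was also at the end of a neighbouring gene. Zinc finger genes named Zfp had one at 151 of 397 (38.0%), solute carriers at 140 of 375 (37.3%) and keratins at 16 of 53 (30.2%). Odorant and pheromone receptor genes, which lie in large clusters, were nearly without sites: 14 of 1110 olfactory receptor genes (1.26%) and 3 of 355 vomeronasal receptor genes (0.845%). Of the olfactory receptor genes of known strand 0.530% had a CpG-rich promoter, against 84.4% of the cytosolic ribosomal protein genes. The same share was 8.33% for keratins and 92.8% for mitochondrial ribosomal protein genes, and the part of CpG content in these counts was not tested. The exact intervals of the proteasome, both ribosomal protein, solute carrier and keratin groups contain 32.9%.

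Chromosomes differed too. The share of genes with a site was highest on chromosome 18 (42.4%), followed by chromosome 12 (38.4%) and chromosome 1 (38.3%), and lowest on chromosome X (20.7%), chromosome 7 (23.3%) and chromosome 17 (25.9%). CpG-rich promoters made up 60.9% of those of known strand on 12, 51.6% on 1, 32.1% on X, 36.4% on 7 and 46.8% on 17, and promoters of chromosome 18 were not analysed here. Without the olfactory and vomeronasal receptor genes the share on chromosome 7 was 28.9%. The part of CpG content in these differences was not tested.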
